A study of Mus musculus with 12 samples.

Results

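The data described here give the genotype difference in gene expression of Rif1 knockout (KO) and wild-type (WT) embryoid bodies (EB), less the difference already present between the cell lines before deletion. For each gene, the F/F against WT difference before deletion was taken from the KO against WT difference in EB, and the result is called the interaction. The contrast uses 8 of the 12 RNA sequencing libraries of a study of Rif1 in female mouse embryonic stem cells (mESC). Of 17115 genes tested, 1767 were equal before deletion and differed in EB, and these genes are the main subject. The thresholds behind that choice are given with the counts.

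EB KO libraries came from lines 15.10 and 16.9, which carry floxed Rif1 on both alleles (Rif1 F/F). These cells had 2 days of 4-hydroxytamoxifen (OHT), which activates the CreERT recombinase, and were then grown for 2 days as EB. EB WT libraries came from lines 5.3 and 5.16 (Rif1+/+), given the same OHT and EB culture. Before-deletion libraries were F/F mESC of lines 15.10 and 16.9 and WT mESC of lines 5.3 and 5.16, none of them given OHT. The title of each F/F library before deletion also says KO. Its undeleted state was read from the bracketed part of the title and from the absence of OHT. All 4 lines carry the Rs26+/CreERT allele, so OHT and Cre are present in both genotypes after treatment, and all are hybrids of C57BL/6J-129/SvJ with Mus musculus castaneus. Culture of the mESC was in serum with LIF plus MEK and GSK3 inhibitors. Each library is 1 line in 1 condition, so n = 2 in every group and the replicates are different lines. Replicates 1, 2, 3 and 4 are lines 5.3, 5.16, 15.10 and 16.9. The 4 mESC libraries made after OHT without EB culture entered the same fit and are outside the interaction contrast.

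RIF1 is a large nuclear protein that recruits protein phosphatase 1 to chromatin, sets the timing of late DNA replication and limits the resection of broken DNA ends. EB are aggregates in which mESC, once the inhibitors are withdrawn, leave the naive state and begin to form an epiblast-like tissue. In female cells this step also starts X inactivation, in which the noncoding RNA Xist coats and silences 1 of the X chromosomes.

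Total counts per library were 28600870 to 41862643 in EB and 34583317 to 42000230 before deletion. Levels are given as CPM, read counts scaled to library depth with TMM factors, and differences as log2 fold changes with their standard error (SE). A gene was called at an adjusted p under 0.05. The description of each library opens with a code that the 4 libraries of a condition share and that differs between conditions. The labels do not say what the code marks, and condition and code cannot be told apart. Each genotype difference is between libraries with the same code. Effects of Rif1 loss, of OHT or Cre acting differently in the floxed lines, and of other differences between the pairs of lines cannot be told apart in the interaction. In bulk RNA, fewer cells of a type and less RNA per cell cannot be told apart either.

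Rif1 itself had 789 and 845 CPM in EB KO libraries and 1382 and 1342 CPM in EB WT libraries. Before deletion it had 1172 and 1172 CPM in F/F libraries and 1537 and 1752 CPM in WT libraries. Rif1 was thus already lower in F/F lines than in WT lines without OHT. The log2 difference was −0.74 ± 0.08 in EB and −0.49 ± 0.08 before deletion. Its interaction of −0.25 ± 0.11 was not called (adjusted p = 0.0873). Rif1 had an adjusted p of 0.0367 without WT replicate 2 before deletion, and 0.0491 with no low-count filter. Reads from exons outside the deleted part are counted too, so the level left in KO libraries does not measure intact Rif1 message.

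The interaction was called for 5339 of 17115 genes (31.2%), with 2652 higher (15.5%) and 2687 lower (15.7%). Scaling to library size alone put 62.4% of the called genes on the higher side, against 49.7% with TMM. KO against WT in EB called 6914 genes (40.4%), with 20.7% higher and 19.7% lower, and F/F against WT before deletion called 6394 (37.4%), with 19.9% higher and 17.5% lower. Of the 6914 genes called in EB, 2250 (32.5%) were called in the same direction before OHT was given, 962 in the opposite direction and 3702 were not called before deletion. Genes equal before deletion were defined by 4 conditions: an interaction call, an EB call of the same sign, no call before deletion, and a difference before deletion under 0.5 in size on the log2 scale. The 1767 genes that met them were 33.1% of the interaction calls, and 891 were higher (5.21% of genes tested) and 876 lower (5.12%) in EB KO. With scaling to library size alone the set split into 1151 higher and 594 lower genes. Another 1689 interaction calls (31.6%) were genes that differed before deletion and were not called in EB.

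**Figure D1:**
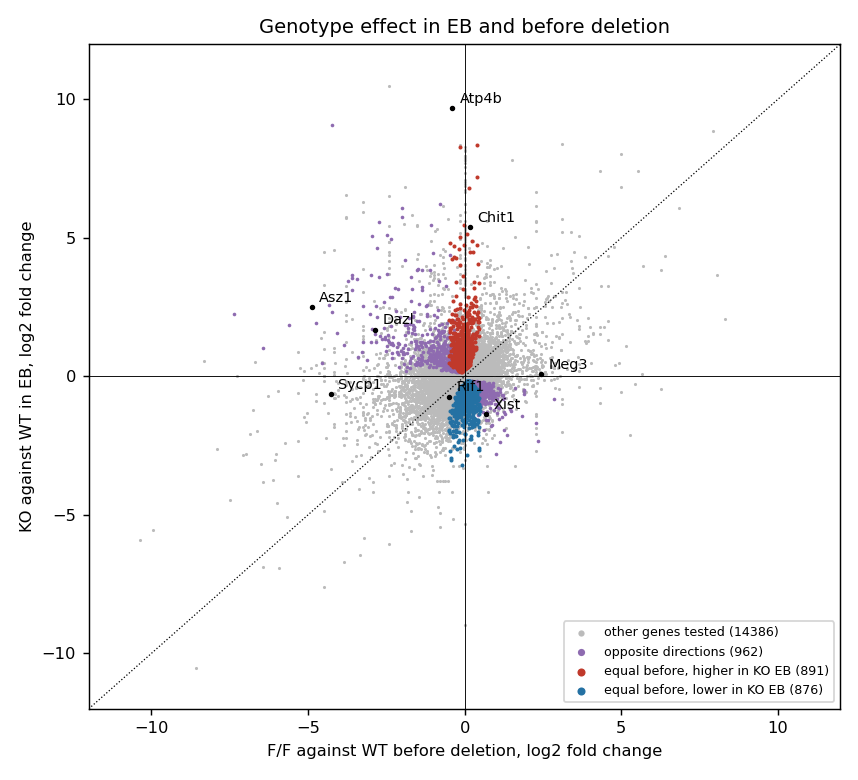
Each point is 1 of 17115 genes. The x axis gives the log2 fold change of F/F against WT before deletion and the y axis that of KO against WT in EB. Red points (891 genes) and blue points (876 genes) were equal before deletion and form a vertical band at 0 on the x axis, purple points (962 genes) were called in opposite directions, and the dotted line marks equal effects in both conditions.

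A missed call does not show equality, so the precision before deletion is given too. The 95% interval of the difference before deletion lay inside ±0.5 for 638 of the 891 higher genes and 632 of the 876 lower genes. At least 1 CPM on average before deletion was found for 824 of the higher and 839 of the lower genes. The other 67 and 37 genes were near 0 in mESC, where a baseline difference could hardly have been seen. Most effects were moderate. The median interaction of the higher genes was 0.67 (quartiles 0.45 and 1.16) and that of the lower genes was −0.65 (quartiles −0.96 and −0.45). At least a 2-fold interaction was found for 270 higher (30.3%) and 197 lower genes (22.5%). Without EB KO replicate 3, EB KO replicate 4 or EB WT replicate 2, the lower genes numbered 573, 539 and 574. Among genes with a mean log2 CPM of at least 5, Arfgef1 (0.37 before deletion) and Terc (−0.35) were the members closest to the 0.5 limit, and no gene lay just outside it. Arfgef1 had an adjusted p of 0.0684 to 0.189 without EB KO replicate 3, EB KO replicate 4, EB WT replicate 2, F/F replicate 3 before deletion, F/F replicate 4 before deletion or WT replicate 1 before deletion, and 0.154 in DESeq2's Wald test. Terc had an adjusted p of 0.0808 to 0.16 without EB KO replicate 3, EB WT replicate 1, F/F replicate 3 before deletion or WT replicate 1 before deletion, and 0.156 in DESeq2's Wald test.

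The KO against WT contrast in mESC after OHT was not used in choosing these genes. Its 4 libraries come from the same lines and entered the shared fit, where they bear on the filter and the dispersion. With the 8 libraries alone the genes equal before deletion numbered 1857, of which 1686 were among the 1767. Of the 891 genes higher in EB KO, 223 (25%) were also higher and 94 (10.5%) lower in KO mESC than in WT mESC. The background over all genes tested was 19.8% higher and 18.6% lower. That background holds the 37.4% of genes that were called between the lines before deletion, which the choice of the set leaves out. The set and the background are thus unlike, and a background of genes not called before deletion was not computed. Of the 876 genes lower in EB KO, 189 (21.6%) were lower and 112 (12.8%) higher in KO mESC. The 189 became 111, 111, 115 and 117 without EB KO replicate 3, EB KO replicate 4, EB WT replicate 1 and WT mESC replicate 1 after OHT. For 574 of the higher and 575 of the lower genes no difference was called at the mESC stage, and the medians there were 0.06 and −0.05. One WT mESC library after OHT, replicate 1, had the most counts of any library (64808897) and the lowest TMM factor (0.942). The other mESC libraries after OHT were not left out in turn. Without it, 203 of 978 higher genes were higher and 47 lower in KO mESC, against 15.0% and 12.4% of all genes. Of 925 lower genes, 117 were lower and 57 higher. The share of the lower genes called lower was then close to the 12.4% of all genes.

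**Figure D2:**
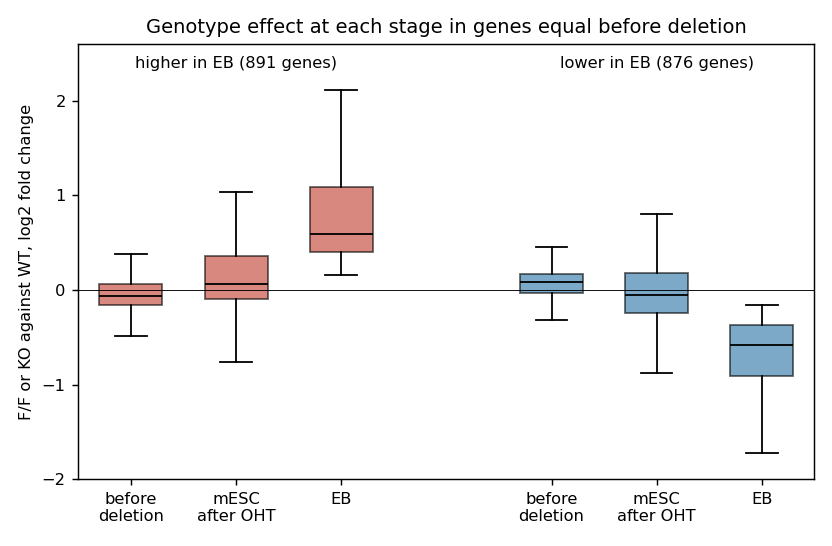
Box plots of the log2 fold change of F/F or KO against WT before deletion, in mESC after OHT and in EB. Boxes give the quartiles and the median, whiskers reach 1.5 times the box height, and points beyond are not drawn. The medians of the 891 higher genes are −0.06, 0.06 and 0.60, and those of the 876 lower genes are 0.08, −0.05 and −0.58. The choice of the genes sets the first medians near 0 and the EB medians apart. Only the contrast in mESC after OHT was not used in that choice, and its medians lie near 0.

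Which side of the EB comparison moved away from the mESC level can be read from the change within each genotype, with condition and that code joined. That change spans 2 days of OHT as well as EB culture. Among the 891 higher genes, 443 rose and 253 fell in the floxed lines between the F/F and EB KO libraries (49.7% and 28.4%), while 167 rose and 532 fell in WT lines (18.7% and 59.7%). Over all genes, 36.2% rose and 34.4% fell in floxed lines, and 35.7% rose and 34.3% fell in WT lines. The interaction is the change in floxed lines less that in WT lines. Choosing genes by its sign thus favours such departures from the background, for the higher and the lower genes. These shares describe the set and are no test. For 441 genes WT fell and KO also fell or was not called, for 185 only KO rose with no call in WT, and for 91 KO rose and WT fell. Among the 876 lower genes, 220 rose and 422 fell in floxed lines, and 493 rose and 173 fell in WT lines. There, 201 genes fell in KO with no call in WT and 48 fell in KO and rose in WT. The change within each floxed line lay outside that of both WT lines for 890 higher and 873 lower genes, against 66.4% of all genes, a property that the choice of the genes nearly fixes.

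Among the genes equal before deletion and higher in EB KO, the largest interaction was that of Atp4b, the beta subunit of the gastric proton pump. It had 63.4 and 75.5 CPM in EB KO libraries, against 0.0606 and 0.0981 CPM in EB WT libraries. Before deletion it had 0.709 and 0.579 CPM in F/F and 1.0 and 0.675 CPM in WT libraries, so the groups overlapped before OHT was given. The interaction was 10.07 ± 0.61, a value that rests on 6 counts in the 2 EB WT libraries together. Atp4b was also higher in KO mESC after OHT, by 2.88 ± 0.35.

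Chit1, a secreted chitinase, had 99.3 and 112 CPM in EB KO and 3.12 and 2.01 CPM in EB WT libraries. Before deletion it had 0.22 and 0.121 CPM in F/F and 0.158 and 0.141 CPM in WT libraries, and the interaction was 5.2 ± 0.61. Chit1 had only 14 counts in F/F and 11 in WT libraries before deletion, so its baseline difference of 0.18 ± 0.59 is uncertain. Its difference in mESC after OHT was 3.09 ± 0.29, in the same direction. Ubtfl1, a gene of the 2-cell embryo, had 13.5 and 15.4 CPM in EB KO and 0.455 and 0.417 CPM in EB WT libraries, and 0.0978 and 0.0482 CPM in F/F and 0.0528 and 0.112 CPM in WT libraries before deletion. The F/F and WT groups overlapped before deletion and were near the floor of 3 counts per library, whereas the EB groups were far apart. Chit1 and Ubtfl1 start from promoters with almost no CpG, the dinucleotide that DNA methylation acts on. The windows below run from 250 bases before to 50 bases after the RefSeq start in build GRCm38.p6, 5′ to 3′ on the gene's strand, with CpG in capitals. Chit1 lies at chr1:134110992-134111291 (plus strand) with 2 CpG, and Ubtfl1 at chr9:18404168-18404467 (plus strand) with 0.
Chit1: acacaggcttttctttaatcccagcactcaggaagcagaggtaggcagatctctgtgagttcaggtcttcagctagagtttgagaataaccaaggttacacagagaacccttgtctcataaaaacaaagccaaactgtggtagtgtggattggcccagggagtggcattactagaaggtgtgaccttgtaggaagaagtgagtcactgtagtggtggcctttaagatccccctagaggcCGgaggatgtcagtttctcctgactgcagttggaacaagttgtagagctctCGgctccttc
Ubtfl1: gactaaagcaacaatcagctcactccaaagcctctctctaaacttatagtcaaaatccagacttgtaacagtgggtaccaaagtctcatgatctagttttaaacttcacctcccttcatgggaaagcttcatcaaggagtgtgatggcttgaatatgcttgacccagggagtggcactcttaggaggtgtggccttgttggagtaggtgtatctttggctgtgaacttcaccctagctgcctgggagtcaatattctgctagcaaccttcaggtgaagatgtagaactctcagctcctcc
The longest run these windows share is CCCAGGGAGTGGCA, of 14 bases, which 6 of the 13249 tested genes with a promoter in the table hold on either strand (0.0453%). The windows printed were chosen after values were seen and do not stand for the genes equal before deletion. The median was 20 CpG for the higher and 20 for the lower genes, against 19 for all genes tested. A promoter was found for only 79.2%, 79.2% and 77.4% of these sets, under the 80% needed, so a comparison between them is void.

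Lmx1a encodes a LIM homeodomain factor of the roof plate and of midbrain dopaminergic progenitors. It had 17.4 and 17.6 CPM in EB KO and 0.94 and 0.441 CPM in EB WT libraries, and 1.81 and 1.33 CPM in F/F and 2.11 and 1.83 CPM in WT libraries before deletion. EB WT was the low group, while EB KO stood above both mESC groups. The interaction was 5.03 ± 0.37, and the difference in mESC after OHT was 0.99 ± 0.26. Its promoter, at chr1:167689308-167689607 (plus strand) in the same build, has 12 CpG and is shown beside the CpG-poor windows for contrast.
Lmx1a: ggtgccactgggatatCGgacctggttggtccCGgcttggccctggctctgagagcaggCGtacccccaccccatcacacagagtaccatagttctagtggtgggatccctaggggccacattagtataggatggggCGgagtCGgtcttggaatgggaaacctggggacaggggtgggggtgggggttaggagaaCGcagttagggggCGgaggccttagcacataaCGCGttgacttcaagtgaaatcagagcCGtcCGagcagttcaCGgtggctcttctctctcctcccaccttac
Tmem132c, which encodes a transmembrane protein, had 86 and 89.4 CPM in EB KO and 4.37 and 3.04 CPM in EB WT libraries. Before deletion the levels were 13.5 and 12.8 CPM in F/F and 16.2 and 13.5 CPM in WT libraries, close together, and the interaction was 4.76 ± 0.18. In mESC after OHT the difference was −0.04 (adjusted p = 0.842).

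At a mean log2 CPM of at least 0, other genes with large interactions were 2610206C17Rik (5.51), Gm1995 (5.07), the G protein-coupled receptor kinase Grk4 (4.77), the cytokine gene Ctf2 (4.66), Echdc3 (4.65), Gm2560 (4.33) and Ccdc170 (3.68), each on the log2 scale. Gm1995 shares 44.3% of its 50-base words with other transcripts, so its reads may have been split or lost in the authors' counting. Ctf2 had 7 counts in F/F and 8 in WT libraries before deletion, so its baseline difference of −0.35 ± 0.76 is uncertain. The sizes for 2610206C17Rik, Gm2560 and Grk4 rest on 10, 15 and 17 counts in the 2 EB WT libraries together. Among genes with a mean log2 CPM of at least 5, Fbxo15 led with 1.99 ± 0.11. Fbxo15, an F-box gene used as a marker of undifferentiated stem cells, had 352 and 365 CPM in EB KO and 111 and 95.7 CPM in EB WT libraries. Before deletion it had 249 and 266 CPM in F/F and 301 and 290.4 CPM in WT libraries. EB KO thus lay above all other groups and EB WT below them, with a baseline difference just short of the threshold (adjusted p = 0.0525). After it came the testis-enriched tubulin gene Tuba3a (1.77), the thyrotropin-releasing hormone gene Trh (1.6), the secretory carrier gene Scamp1 (1.59), the MED12 paralogue gene Med12l (1.52), Plekhb2 (1.52), the matricellular gene Ctgf (1.49) and Kank4 (1.43). Tuba3a shares 33.6% of its 50-base words with other transcripts. Opposite-strand genes overlap 17.3% of the exon bases of Med12l and 23.2% of those of Ctgf, and whether the authors counted by strand was not stated.

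**Figure D3:**
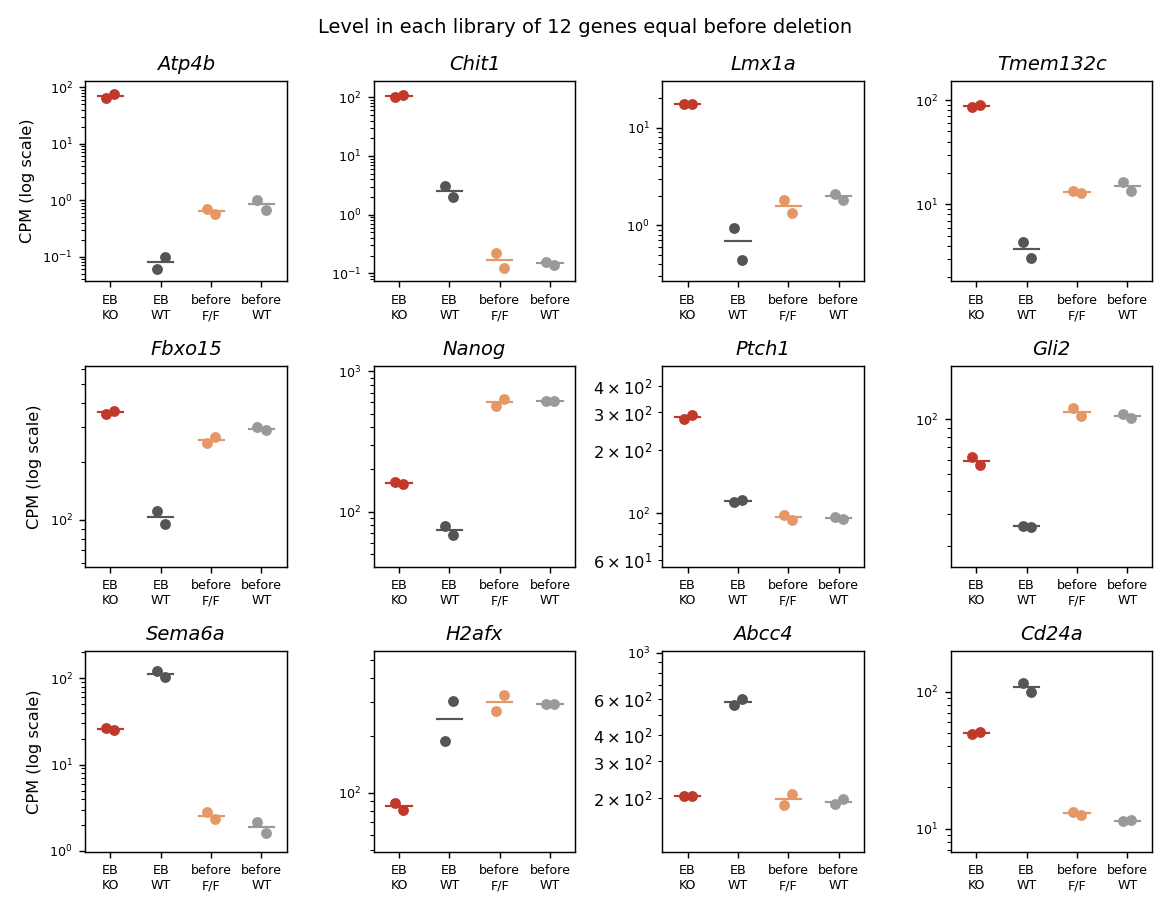
Level in CPM (log scale, a separate range for each panel) of 12 genes equal before deletion, with 1 point per library and a line at the mean of 2 libraries. Groups from left to right are EB KO, EB WT, F/F before deletion and WT before deletion. In each panel the F/F and WT points before deletion lie close together, while the EB KO points lie above (upper 8 panels) or below (lower 4 panels) the EB WT points.

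On the lower side, effects were smaller. Sema6a, a transmembrane semaphorin, had 26.7 and 25.1 CPM in EB KO and 120.4 and 103 CPM in EB WT libraries, and 2.79 and 2.34 CPM in F/F and 2.19 and 1.63 CPM in WT libraries before deletion. Both genotypes gained Sema6a on EB culture, and KO libraries reached a lower level. The interaction was −2.52 ± 0.23, and the difference in mESC after OHT was −0.06 (adjusted p = 0.821). Abcc4, an efflux transporter gene, had 204 and 205 CPM in EB KO and 561 and 596 CPM in EB WT libraries, against 184 and 209.7 CPM in F/F and 187 and 199 CPM in WT libraries before deletion. The EB KO level stayed within the range of mESC, and only EB WT stood apart, with an interaction of −1.53 ± 0.10.

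H2afx, the histone variant phosphorylated around double-strand breaks, had 87.9 and 81.1 CPM in EB KO and 187 and 303 CPM in EB WT libraries. Before deletion it had 271 and 328 CPM in F/F and 295 and 294 CPM in WT libraries. EB KO was the low group of the 4, and the EB WT libraries differed widely between themselves. In mESC after OHT, H2afx was also low, with 77.1 and 100 CPM in KO and 105 and 122 CPM in WT libraries. The difference there was −0.35 (adjusted p = 0.0937). The interaction of H2afx was −1.56 ± 0.23, and opposite-strand genes overlap 10.2% of its exon bases. Smc1b, a meiotic cohesin subunit, had 20 and 22.2 CPM in EB KO and 60.4 and 69 CPM in EB WT libraries, with 79.7 and 65.8 CPM in F/F and 77 and 74.5 CPM in WT libraries before deletion. Of these 4 groups EB KO again stood apart, and the interaction was −1.56 ± 0.17. Smc1b was already low in KO mESC after OHT, at 24.1 and 17.2 CPM. WT mESC after OHT had 40.1 and 39.2 CPM, a difference of −0.94 ± 0.12. Cd24a, a surface glycoprotein gene, had 49.5 and 50.9 CPM in EB KO and 116 and 99.7 CPM in EB WT libraries, against 13.3 and 12.7 CPM in F/F and 11.3 and 11.6 CPM in WT libraries before deletion, an interaction of −1.28 ± 0.12. The spectrin gene Sptbn4 (−1.48), the lipase gene Liph (−1.38), the neutral amino acid transporter gene Slc1a4 (−1.25) and Tmc7 (−1.15) completed the lower genes of high expression. Of low expression were Zfr2 (−2.9), the testis kinase gene Tssk6 (−2.44), Apol8 (−2.33), the oocyte gene Padi6 (−2.18), Nwd1 (−2.13), 1700123I01Rik (−2.12), the cannabinoid receptor gene Cnr1 (−2.08) and the guidance ligand gene Slit1 (−2.05). Opposite-strand genes overlap 29.2% of the exon bases of Tssk6. Atp6v1b1, 5930403L14Rik and Mroh4 were called lower on at most 8 counts in the 2 EB KO libraries together. Atp6v1b1 had an adjusted p of 0.056 to 0.112 without EB KO replicate 3, EB KO replicate 4 or EB WT replicate 2, and 0.0559 in DESeq2's Wald test. 5930403L14Rik had an adjusted p of 0.0541 to 0.082 without EB KO replicate 3 or EB WT replicate 1. Mroh4 had an adjusted p of 0.0759 to 0.121 without EB KO replicate 4 or EB WT replicate 2.

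Gene lists for pathways and cell types were then read against the same background of 15.5% higher and 15.7% lower interaction calls and a median of −0.02 over all genes. Of 26 naive pluripotency genes tested, 9 were higher and 7 lower, and their median was 0.02. The members equal before deletion were Nanog (1.14 ± 0.12), Fbxo15 and Socs3 (0.39 ± 0.12) on the higher side and Gbx2 (−1.19 ± 0.20) on the lower. Nanog, a core factor of the naive state, had 162 and 159 CPM in EB KO and 79.7 and 67.7 CPM in EB WT libraries. Before deletion it had 569 and 640.5 CPM in F/F and 612 and 612 CPM in WT libraries. Both genotypes thus lost most Nanog from before deletion to EB, and KO retained more. The Nanog difference in mESC after OHT was −0.13 (adjusted p = 0.219). Socs3 had an adjusted p of 0.0592 to 0.101 without EB KO replicate 4, EB WT replicate 2, F/F replicate 4 before deletion or WT replicate 1 before deletion.

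Of 25 formative epiblast genes, 6 were higher and 8 lower, and their median was −0.32. In EB, 2 of them were higher and 18 lower in KO, but 13 were already lower in F/F before deletion. The de novo DNA methyltransferase gene Dnmt3b and the transcription factor genes Foxd3 and Tcf15 were the members equal before deletion. Dnmt3b had 776 and 784 CPM in EB KO and 1205 and 1238 CPM in EB WT libraries, against 64.9 and 75.2 CPM in F/F and 78.9 and 79 CPM in WT libraries before deletion. Its rise from before deletion to EB was large in both genotypes, and the interaction was −0.47 ± 0.10. Foxd3 had 10.2 and 8.44 CPM in EB KO and 21.2 and 24.6 CPM in EB WT libraries, with an interaction of −1.59 ± 0.26. Tcf15 was borderline, at −0.75 ± 0.26. Tcf15 had an adjusted p of 0.0521 to 0.242 without EB KO replicate 3, EB KO replicate 4, EB WT replicate 2, F/F replicate 4 before deletion, WT replicate 1 before deletion or WT replicate 2 before deletion, and 0.0566 with the 5 CPM filter, and 0.0827 with library-size scaling.

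Of 14 core pluripotency genes, 1 was higher and 6 lower. In that list, 0 were higher without EB KO replicate 4, EB WT replicate 2, F/F replicate 3 before deletion or WT replicate 2 before deletion. Members equal before deletion and lower in EB KO included Foxd3, Zfp281 (−0.50 ± 0.10) and the RNA-binding protein gene Lin28a (−0.50 ± 0.14). Lin28a had an adjusted p of 0.0643 without WT replicate 2 before deletion. Of 18 Nodal signalling genes, 4 were higher and 5 lower, or 8 and 3 with scaling to library size alone and 7 and 5 with the filter at 5 CPM. In that list, 3 were lower without EB KO replicate 3. The feedback inhibitors Lefty1 and Lefty2 were equal before deletion and higher in EB KO. Lefty2 had 372 and 395 CPM in EB KO and 183 and 199 CPM in EB WT libraries, and 94.5 and 134 CPM in F/F and 113 and 132 CPM in WT libraries before deletion, an interaction of 1.11 ± 0.18. The interaction of Lefty1 was 0.91 ± 0.23, and that of the Activin-binding protein gene Fst was −1.0 ± 0.26. Lefty1 and Lefty2 were also higher in KO mESC after OHT, by 1.13 and 0.52.

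Lineage lists had few members equal before deletion. Of 19 mesendoderm genes, 7 were higher and 1 lower, and Lefty1 and Lefty2 were the only members equal before deletion. In that list, 0 were lower without EB KO replicate 3, EB WT replicate 2, F/F replicate 4 before deletion or WT replicate 1 before deletion. Of 15 trophoblast genes, 4 were higher and 4 lower. In that list, 2 were lower without EB KO replicate 3, EB KO replicate 4, EB WT replicate 2 or F/F replicate 4 before deletion. The transcription factor genes Tfap2c and Gata2 were equal before deletion and higher in EB KO, and the cadherin gene Cdh3 was lower (−1.12 ± 0.19). Tfap2c had 44.3 and 43.8 CPM in EB KO and 16.3 and 16.4 CPM in EB WT libraries, against 98 and 107 CPM in F/F and 95 and 94.3 CPM in WT libraries before deletion. Gata2 had 3.76 and 4.19 CPM in EB KO and 0.819 and 0.809 CPM in EB WT libraries, against 53.5 and 47.1 CPM in F/F and 49.9 and 46.7 CPM in WT libraries before deletion. Both genes were lower in EB than before deletion in both genotypes, more so in WT, with interactions of 1.31 ± 0.11 and 2.22 ± 0.23. Part of the drop was present in mESC after OHT, without EB culture. There Gata2 had 14.9 and 17.2 CPM in KO and 7.65 and 9.14 CPM in WT libraries, a difference of 0.94 ± 0.11. Tfap2c had 58 and 65.6 CPM in KO and 56.1 and 60.3 CPM in WT libraries there. Of 13 neuroectoderm genes, 4 were higher and 1 lower. Of 22 primitive endoderm genes, 5 were higher and 4 lower. In that list, 2 were higher without EB KO replicate 4, EB WT replicate 2 or WT replicate 1 before deletion, and 3 were higher without EB KO replicate 3 or F/F replicate 4 before deletion. The basement membrane gene Lama1 (−0.69 ± 0.12) was lower from an equal baseline, as was the endocytic receptor gene Lrp2 (−0.43 ± 0.15), while the adaptor gene Dab2 was higher (0.93 ± 0.27). Lrp2 had an adjusted p of 0.0859 to 0.216 without EB KO replicate 3, EB KO replicate 4, EB WT replicate 2, F/F replicate 3 before deletion or WT replicate 2 before deletion, and 0.0699 with the 5 CPM filter, and 0.105 with library-size scaling. Dab2 had an adjusted p of 0.056 to 0.108 without EB KO replicate 4, EB WT replicate 2 or WT replicate 1 before deletion. The 14 feeder fibroblast genes tested summed to 1254 and 1287 CPM in EB KO, 1105 and 1099 CPM in EB WT, 3085 and 3369 CPM in F/F and 2291 and 2275 CPM in WT libraries before deletion. In that list 3 were higher and 2 lower. In that list, 5 were higher without WT mESC replicate 1 after OHT, and 1 was lower without EB KO replicate 3, EB KO replicate 4, EB WT replicate 1, EB WT replicate 2, F/F replicate 4 before deletion, WT replicate 1 before deletion or WT replicate 2 before deletion. The collagen gene Col5a1 (1.04 ± 0.16) and the fibrillin gene Fbn1 (0.58 ± 0.21) were equal before deletion. Fbn1 had an adjusted p of 0.0851 to 0.297 without EB KO replicate 3, EB WT replicate 1, EB WT replicate 2, F/F replicate 3 before deletion or WT replicate 1 before deletion, and 0.0546 with cell line as a replicate block. The part of contaminating cells in any result was not tested.

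Of 15 Hedgehog signalling genes tested, 7 were higher and none lower, and their median was 0.48. None of the 15 was lower with either other scaling tried. This list was written after its values had been seen, so its counts are a description. In this pathway the receptor PTCH1 and the decoy HHIP are themselves targets of the GLI factors. Ptch1 had 280.5 and 292 CPM in EB KO and 113 and 115 CPM in EB WT libraries, and 98.4 and 93.4 CPM in F/F and 96.3 and 93.7 CPM in WT libraries before deletion. The other 3 groups lay within a narrow range and EB KO alone stood above it, with an interaction of 1.32 ± 0.10. Gli2, a transcriptional effector, had 61.7 and 56 CPM in EB KO and 25.7 and 25.5 CPM in EB WT libraries, against 116 and 104 CPM in F/F and 108 and 102 CPM in WT libraries before deletion. Both genotypes lost Gli2 from before deletion to EB, WT more than KO, and the interaction was 1.13 ± 0.12.

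Hhip had 2.64 and 3.4 CPM in EB KO and 0.728 and 1.01 CPM in EB WT libraries, with an interaction of 1.92 ± 0.31. The co-receptor gene Gas1 had 9.21 and 8.99 CPM in EB KO and 2.88 and 3.63 CPM in EB WT libraries, with an interaction of 1.56 ± 0.22. Gli1 (1.5 ± 0.18) and Gli3 (1.01 ± 0.12) were called in the interaction too, but both already differed before deletion, Gli1 by 0.38 and Gli3 by −0.66. In mESC after OHT, 8 of the 15 were higher and none lower in KO, against 19.8% higher and 18.6% lower over all genes tested. The promoters of Ptch1, at chr13:63565686-63565985 (minus strand) with 47 CpG, and of Gli2, at chr1:119053570-119053869 (minus strand) with 28 CpG, are shown from the same RefSeq table and build as the CpG-rich counterparts of the Chit1 window.
Ptch1: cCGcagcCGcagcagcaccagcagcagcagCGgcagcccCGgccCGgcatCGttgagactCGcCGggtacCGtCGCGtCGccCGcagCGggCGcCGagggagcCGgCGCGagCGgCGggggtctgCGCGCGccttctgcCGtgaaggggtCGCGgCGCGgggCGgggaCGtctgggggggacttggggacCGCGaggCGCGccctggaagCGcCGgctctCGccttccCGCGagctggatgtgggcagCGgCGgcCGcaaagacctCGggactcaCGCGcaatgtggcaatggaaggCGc
Gli2: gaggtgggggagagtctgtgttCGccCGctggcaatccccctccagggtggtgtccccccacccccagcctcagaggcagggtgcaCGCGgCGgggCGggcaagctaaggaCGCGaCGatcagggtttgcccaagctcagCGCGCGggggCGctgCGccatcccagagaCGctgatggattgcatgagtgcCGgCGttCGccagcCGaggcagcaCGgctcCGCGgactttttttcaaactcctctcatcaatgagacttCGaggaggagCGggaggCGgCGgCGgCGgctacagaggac
The GLI core GGGTGGTC was searched on both strands and was present in 138 of 13249 promoters of tested genes (1.04%) and in 0 of the 12 promoters of the Hedgehog list. That result says only that these letters are not in the 300-base windows.

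Genes of heterochromatin and transposon silencing were called lower more often than higher. Of 28 H3K9 and KAP1 silencing genes, 1 was higher and 11 lower, and their median was −0.14. In that list, 0 were higher without EB KO replicate 3, EB KO replicate 4, EB WT replicate 1 or F/F replicate 4 before deletion, and 2 were higher without WT mESC replicate 1 after OHT. The members equal before deletion were the H3K9 methyltransferase genes Ehmt2 (−0.72 ± 0.11) and Suv39h2 (−0.54 ± 0.12), the histone chaperone gene Chaf1b (−0.40 ± 0.09), the HUSH subunit gene Pphln1 (−0.42 ± 0.10) and Mga (−0.45 ± 0.10). Ehmt2 had 154 and 151 CPM in EB KO and 239 and 253 CPM in EB WT libraries, against 229 and 253 CPM in F/F and 240.1 and 231 CPM in WT libraries before deletion. EB KO was the only group to stand apart. Of 12 DNA methylation genes, 2 were higher and 6 lower, with Dnmt3b and the dioxygenase gene Tet3 (−0.54 ± 0.16) lower and the glycosylase gene Mbd4 (0.36 ± 0.10) higher from an equal baseline. In that list, 1 was higher without EB KO replicate 4 or WT replicate 1 before deletion. Tet3 had an adjusted p of 0.0566 to 0.0594 without EB KO replicate 3 or F/F replicate 3 before deletion, and 0.0695 with library-size scaling. Mbd4 had an adjusted p of 0.0547 to 0.073 without EB KO replicate 4 or WT replicate 1 before deletion. Of 30 Polycomb genes, 5 were higher and 5 lower. Kdm2b (−0.78 ± 0.09), Cbx7 (−0.71 ± 0.09) and Cbx2 (−0.50 ± 0.11) were lower and the ubiquitin ligase gene Rnf2 (0.34 ± 0.10) higher from an equal baseline. In that list, 3 were higher without WT replicate 2 before deletion. Rnf2 had an adjusted p of 0.0528 to 0.0831 without EB KO replicate 4, EB WT replicate 2, F/F replicate 3 before deletion or WT replicate 2 before deletion. Of 10 genes of RIF1 partners, 1 was called higher, Trp53bp1 (0.30 ± 0.10), whose difference before deletion was −0.37. In that list, 0 were higher without EB KO replicate 3, EB KO replicate 4, EB WT replicate 1, F/F replicate 4 before deletion or WT replicate 1 before deletion, and 2 were higher without WT mESC replicate 1 after OHT, and 1 was lower without WT replicate 2 before deletion. Trp53bp1 had an adjusted p of 0.0855 to 0.151 without EB KO replicate 3, EB KO replicate 4, EB WT replicate 1, F/F replicate 4 before deletion or WT replicate 1 before deletion.

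Of 19 genes of the integrated stress response, 2 were higher and 8 lower. In that list, 4 were higher without F/F replicate 4 before deletion, and 5 were lower without EB KO replicate 4, EB WT replicate 2 or WT replicate 2 before deletion. The lower members equal before deletion were the pseudokinase gene Trib3 (−0.97 ± 0.18), the glutathione-degrading enzyme gene Chac1 (−0.68 ± 0.21), the serine hydroxymethyltransferase gene Shmt2 (−0.60 ± 0.13), the amino acid transporter gene Slc7a5 (−0.37 ± 0.10) and the alanyl-tRNA synthetase gene Aars (−0.33 ± 0.09). Chac1 had an adjusted p of 0.0517 to 0.138 without EB KO replicate 3, EB KO replicate 4, EB WT replicate 2 or WT replicate 2 before deletion. Aars had an adjusted p of 0.056 to 0.0773 without EB KO replicate 4, EB WT replicate 2 or WT replicate 2 before deletion. Slc7a5 had an adjusted p of 0.0564 without WT replicate 2 before deletion. Of 20 MAPK feedback genes, 7 were higher and 4 lower. Myc, Spry1 and Il17rd were lower from an equal baseline. Myc had 13.9 and 15.8 CPM in EB KO and 37.1 and 34.1 CPM in EB WT libraries, and 1.34 and 1.93 CPM in F/F and 0.818 and 1.55 CPM in WT libraries before deletion, an interaction of −1.74 ± 0.36. Spry1, a receptor tyrosine kinase inhibitor gene, had an interaction of −0.71 ± 0.14, and Il17rd had −0.29 ± 0.10. Il17rd had an adjusted p of 0.0643 to 0.116 without EB KO replicate 3, EB KO replicate 4, EB WT replicate 1, EB WT replicate 2, F/F replicate 4 before deletion, WT replicate 1 before deletion or WT replicate 2 before deletion, and 0.0827 with library-size scaling. Of 18 cholesterol biosynthesis genes, 13 were lower in EB KO, but 14 were lower in F/F before deletion and the interaction called 4 higher and 4 lower. Tm7sf2 (−0.94 ± 0.18) was the member equal before deletion.

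Germline genes differed much between both genotype comparisons. Of 34 tested, 28 were higher and 4 lower in the interaction, whereas KO against WT in EB gave 14 higher and 17 lower. Before deletion, 26 were lower and 2 higher in F/F than in WT. Of the 34, 6 were equal before deletion. The ribosomal protein retrogene Rpl10l had 62.4 and 55.9 CPM in EB KO and 11.2 and 12.6 CPM in EB WT libraries, against 9.17 and 10.4 CPM in F/F and 9.52 and 8.69 CPM in WT libraries before deletion. Its interaction was 2.2 ± 0.21, followed by Tuba3a, the X-linked homeobox gene Rhox9 (1.74 ± 0.21) and the meiotic entry gene Stra8 (1.44 ± 0.31). Smc1b and the meiotic chromosome axis gene Hormad1 (−1.26 ± 0.15) were lower.

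The 2-cell-like list could not be judged against its baseline in most cases. Of 44 genes listed, 39 were in the table and 31 passed the low-count filter. Enough reads in the 2 libraries of 1 group suffice for that filter, so a gene could pass through EB KO alone. Counts of higher members are thus favoured by the filter and are a description. Of the 31 genes tested, 30 were higher and none lower in EB KO, and 30 were under 1 CPM before deletion. Summed over the list, there were 50565 counts in EB KO, 2399 in EB WT, 348 in F/F and 296 in WT libraries before deletion. For 10 genes no read was counted in any of the 4 libraries before deletion, so no interaction could be estimated. The interaction was called higher for 11, or for 6 without WT replicate 2 before deletion and 18 in DESeq2's Wald test, and lower for none. Ubtfl1, B020004J07Rik and Gm21319 met all conditions for an equal baseline. B020004J07Rik had 11.6 and 11.5 CPM in EB KO and 1.24 and 0.956 CPM in EB WT libraries, against 2.49 and 2.53 CPM in F/F and 1.4 and 2.73 CPM in WT libraries before deletion. It was the one member with a measurable baseline, and its interaction was 3.11 ± 0.36. Gm21319 was at or under the floor of 3 counts in each library before deletion, and it and B020004J07Rik share 13.1% and 13.4% of their 50-base words with other transcripts. Gm21319 had an adjusted p of 0.0516 to 0.162 without EB KO replicate 4, EB WT replicate 2, F/F replicate 3 before deletion, F/F replicate 4 before deletion, WT replicate 1 before deletion or WT replicate 2 before deletion.

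Of 38 imprinted genes, 6 were higher and 12 lower. Ndn and Magel2, paternally expressed neighbours of the Prader-Willi region, were equal before deletion and higher in EB KO, and the zinc finger gene Peg3 was lower (−0.62 ± 0.10). Ndn had 62.5 and 61.6 CPM in EB KO and 16.2 and 18.1 CPM in EB WT libraries, against 17 and 17.7 CPM in F/F and 16.8 and 16.4 CPM in WT libraries before deletion, an interaction of 1.79 ± 0.12. Magel2 had 9.26 and 9.85 CPM in EB KO and 3.52 and 2.8 CPM in EB WT libraries, an interaction of 1.71 ± 0.32. Both were also higher in KO mESC after OHT, by 1.3 and 1.22. The Dlk1-Dio3 genes Meg3, Rian and Rtl1 show the converse. Meg3 had 284 and 295 CPM in EB KO and 278 and 271 CPM in EB WT libraries, but 184 and 158 CPM in F/F and 33.8 and 29.2 CPM in WT libraries before deletion. The EB groups lay close together and WT mESC stood apart at a low level, with an interaction of −2.37 ± 0.14. The same held for Rian (−2.01 ± 0.12) and Rtl1 (−2.28 ± 0.13).

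Several other lists had few members with an equal baseline. Of 24 interferon genes, 8 were higher and 1 lower, with none equal before deletion, and 5 were higher without EB KO replicate 3. Of 25 p53 targets, 5 were higher and 4 lower, and Eda2r (0.66 ± 0.10, X-linked) and Trp53inp1 (−0.40 ± 0.11) were equal before deletion. In that list, 2 were lower without EB WT replicate 1, F/F replicate 4 before deletion or WT replicate 1 before deletion. Trp53inp1 had an adjusted p of 0.0578 without EB WT replicate 1. Of 24 glycolysis and hypoxia genes, 4 were higher and 4 lower, with the kinase gene Pdk1 (−0.55 ± 0.09) lower and Hk2 (0.28 ± 0.09) and Aldoc (0.48 ± 0.17) higher from an equal baseline. In that list, 2 were higher without EB KO replicate 4, EB WT replicate 1, F/F replicate 3 before deletion or WT replicate 2 before deletion, and 7 were higher without F/F replicate 4 before deletion. Hk2 had an adjusted p of 0.0621 to 0.126 without EB KO replicate 3, EB KO replicate 4, EB WT replicate 1, F/F replicate 3 before deletion or WT replicate 2 before deletion. Aldoc had an adjusted p of 0.0566 to 0.165 without EB KO replicate 4, EB WT replicate 1, EB WT replicate 2, F/F replicate 3 before deletion, WT replicate 1 before deletion or WT replicate 2 before deletion. Of 10 clustered protocadherins tested, 2 were higher and 1 lower, with Pcdhac2 (2.14 ± 0.50) and Pcdhga2 (1.75 ± 0.42) equal before deletion. Protocadherin isoforms share exons within a cluster, so their counts are uncertain.

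**Figure D4:**
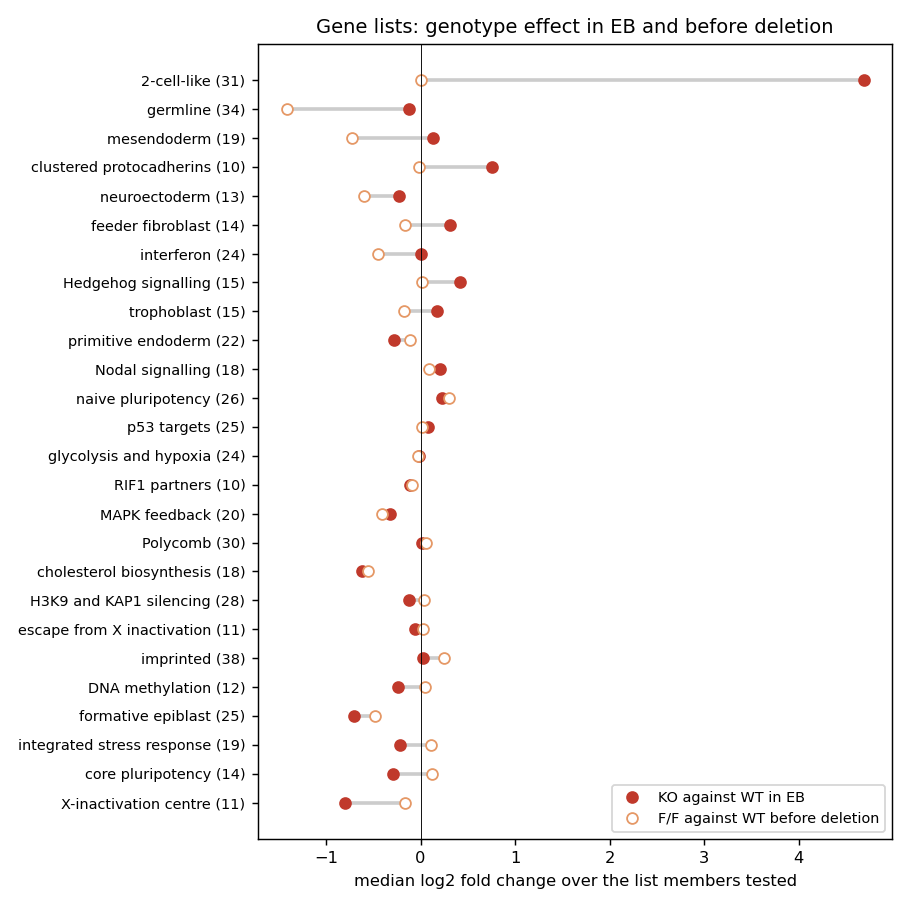
For each of 26 gene lists (tested members in brackets), a filled red point gives the median log2 fold change of KO against WT in EB and an open point that of F/F against WT before deletion, joined by a grey bar. Lists are ordered by the median interaction. The germline bar is long because its open point lies far to the left, the 2-cell-like bar because its filled point lies far to the right, and the cholesterol points nearly coincide below 0.

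X-linked genes were called higher in the interaction more often than autosomal genes. Of 679 X-linked genes tested, 284 were higher (41.8%) and 36 lower (5.3%) in the interaction, while 14.4% of 16399 autosomal genes were higher and 16.1% lower. The median interaction was 0.42 for X-linked and −0.03 for autosomal genes. Among genes equal before deletion, 92 X-linked genes were higher (13.5% of those tested) and 3 lower (0.442%), against 4.87% and 5.32% of autosomal genes. The median was 0.32 for the 515 X-linked genes with at least 1 CPM before deletion, and −0.06 for 13098 such autosomal genes.

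Counts on the X chromosome as a percent of autosomal counts were 5.47 and 5.38 in EB KO and 4.42 and 4.59 in EB WT libraries. Before deletion they were 5.07 and 4.91 in F/F and 5.31 and 5.40 in WT libraries. EB WT was the low group. Within a line, the EB minus before-deletion difference was 0.397 and 0.475 percentage points in the floxed lines and −0.891 and −0.808 in WT lines. An exact two-sided permutation test over the 4 lines gave p = 0.333, the smallest value that 6 splits allow, so this permutation test could not pass 0.05. Of the 92 X-linked genes higher from an equal baseline, 63 fell in WT lines from before deletion to EB. Of the same 92 genes, 27 were higher and 8 lower in KO mESC after OHT. Of the 799 autosomal genes in the same set, 469 fell in WT lines, and 196 were higher and 86 lower in KO mESC. The difference between X-linked and autosomal genes in these shares was not tested.

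**Figure D5:**
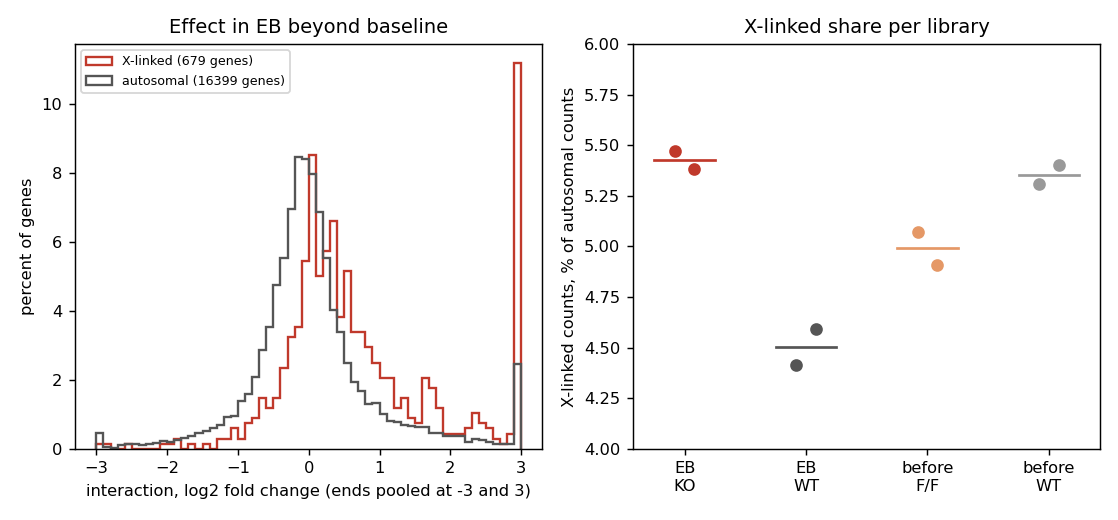
Left, percent of genes by log2 interaction for 679 X-linked (red) and 16399 autosomal genes (grey), with values beyond ±3 pooled in the end bins. The X-linked curve lies to the right, and 10.8% of X-linked and 2.32% of autosomal genes reach 3 or more. Most of these were under 1 CPM before deletion, 50 of 73 X-linked and 331 of 381 autosomal genes. Of the same 73 and 381 genes, 62 and 222 were called in the interaction. Right, counts on the X chromosome as a percent of autosomal counts, with 1 point per library, a line at the mean and an axis that starts at 4, where EB WT is the lowest group.

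Xist had 71.8 and 67.1 CPM in EB KO and 168 and 191 CPM in EB WT libraries, against 35.2 and 27.4 CPM in F/F and 17 and 21.8 CPM in WT libraries before deletion. Xist was thus higher in F/F than in WT before deletion and lower in KO than in WT in EB, with an interaction of −2.07 ± 0.21. Its baseline difference of 0.70 ± 0.15 keeps it outside the set of genes equal before deletion. The antisense gene Tsix overlaps Xist, and 11.5% of the Xist exon bases are covered by opposite-strand genes, so their reads may be mixed. Of 11 X-inactivation centre genes tested, 2 were higher and 3 lower. In that list, 1 was higher without EB KO replicate 3, F/F replicate 4 before deletion or WT replicate 1 before deletion. Ftx, a noncoding activator of Xist, was the member equal before deletion. It had 19.6 and 19.3 CPM in EB KO and 34.1 and 33.8 CPM in EB WT libraries, and 7.53 and 6.63 CPM in F/F and 6.91 and 8.69 CPM in WT libraries before deletion. The interaction of Ftx was −0.66 ± 0.18. Ftx had an adjusted p of 0.0509 without WT replicate 1 before deletion. The Xist activator gene Rlim was higher by 1.14 ± 0.09 but differed before deletion (−0.45). Of 11 genes on a list of escape from X inactivation, written after its values had been seen, 1 was higher and 3 lower. In that list, 0 were higher without EB KO replicate 3, EB KO replicate 4, EB WT replicate 2, F/F replicate 3 before deletion or WT replicate 2 before deletion.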

How the data were processed

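Total RNA of 12 libraries was sequenced. Raw counts of reads for 24391 gene symbols were deposited by the authors in 1 table. Per the submitters' processing notes, the tools were BWA, HTSeq and DESeq2 and the build was mm9, with no versions listed. Strand and aligner settings were not stated.

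The main test was edgeR's quasi-likelihood F test (edgeR 4.0.16, R 4.3.3), in 1 model of 6 groups over all 12 libraries, with TMM scaling, filterByExpr (17115 genes kept) and Benjamini-Hochberg adjustment at 0.05. Prior degrees of freedom were 11.0 and the root of the common dispersion was 0.0717. The simulated counts tested for the interaction had 16630 genes. There, 98 genes were changed 2-fold and 99 genes 4-fold. Of these, 67.3% and 90.9% were called, as were 7 unchanged genes. In the data the interaction was called for 31.2% of genes, so the adjusted cutoff differs and these rates do not carry over.

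Genes were named by rule: Rif1 and Xist, the largest interactions in each direction among genes equal before deletion, overall and at a mean log2 CPM of at least 5, those called in opposite directions, and up to 4 members per list by adjusted p. List members equal before deletion that fall outside this rule were chosen after their values were seen. The members and lists were chosen with earlier results of these data known, and the Hedgehog and X-escape lists were added after values were seen.

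The 4 lines recur in every condition, so replicate numbers pair samples across conditions by cell line, per the labels. Deviations of the same line in EB and before deletion correlated at −0.0557 in the WT lines and 0.0285 in the floxed lines. Alternatives were DESeq2 1.42.0, other scalings and filters, a cell line block, a 1.5-fold threshold by glmTreat, other bands, and leaving out each of the 8 libraries or WT mESC replicate 1 after OHT. Replicates are different lines, with 1 library per line in a condition, so spread between lines and between libraries cannot be told apart. The main test pools that spread over the 6 groups, shares it across genes and does not block the recurring lines. With 2 lines per genotype, its p-values do not measure how lines of a genotype vary in general. Chromosomes came from a GRCm38 annotation, through 23175 RefSeq symbols, 1096 unique synonyms and 25 GENCODE symbols, and 95 symbols had no match. Promoter sequences are RefSeq's in GRCm38.p6 and share no coordinates with the counts. Shared 50-base words were counted in GENCODE transcripts. Where several left-out libraries are listed beside a value, each was left out alone. Some genes that meet the naming rule are not reported here.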

Additional observations from a re-analysis of the deposited data

Results flagged for a closer look

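In 962 genes the genotype effect before deletion and the effect in EB were both called and ran in opposite directions, and the interaction term tested that difference. The 12 with the largest interactions, 6 in each direction, are given here. The 6 with the largest positive interaction (log2) were 4930550L24Rik (8.31), Phf11a (8.08), 3830403N18Rik (7.75), Mageb4 (7.41), Asz1 (7.39) and Gm773 (7.16). 4930550L24Rik had 202 and 187 CPM in EB KO and 4.49 and 3.78 CPM in EB WT libraries, but 3.77 and 4.24 CPM in F/F and 27.3 and 26.5 CPM in WT libraries before deletion. Asz1, a germ cell gene of the piRNA pathway, had 41.6 and 40.2 CPM in EB KO and 7.06 and 7.33 CPM in EB WT libraries, and 0.538 and 0.289 CPM in F/F and 12.6 and 12 CPM in WT libraries before deletion. In both genes F/F lay below WT before deletion and KO above WT in EB, without overlap. Gm773 had 8.33 and 8.0 CPM in EB KO and 0.637 and 0.858 CPM in EB WT libraries, and 0.147 and 0.241 CPM in F/F and 2.74 and 2.47 CPM in WT libraries before deletion. Phf11a rests on 4 counts in EB WT and 4 in F/F libraries, so its size is uncertain. Phf11a, 3830403N18Rik and Mageb4 share 35.2%, 21.8% and 50.1% of their 50-base words with other transcripts.

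The 6 with the largest negative interaction were Tmprss13 (−4.65), Ido2 (−3.97), Tmem179 (−3.67), Onecut2 (−3.27), Acsbg2 (−2.65) and Gm128 (−2.65). Ido2, a tryptophan-degrading dioxygenase gene, had 0.774 and 0.584 CPM in EB KO and 2.03 and 2.4 CPM in EB WT libraries, but 13.2 and 12.6 CPM in F/F and 2.85 and 2.42 CPM in WT libraries before deletion. Onecut2 had 2.06 and 2.54 CPM in EB KO and 9.04 and 3.53 CPM in EB WT libraries, with the EB WT libraries far apart. Gm128 shares 14.2% of its 50-base words with other transcripts.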

How the results depend on the processing

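The counts of interaction calls and of genes equal before deletion stayed within 1.5 times under DESeq2 size factors, scaling to library size, no filter, a stricter filter, DESeq2's Wald test, the 8 libraries alone, bands of 0.25 and 1 and the 95% interval. No gene equal before deletion moved to the set of the opposite direction under these settings or when 1 library was left out. The bands and the 95% interval reuse the main fit, where no sign can change. The other settings share most or all of the libraries, so such a move was unlikely from the start. With cell line as a replicate block, 5131 interaction calls and 1707 genes equal before deletion were found, and the block changed no call among 187 named genes other than that of Fbn1. A test against a 1.5-fold change left 1404 interaction, 1809 EB and 1270 before-deletion calls, and 338 genes equal before deletion (221 higher, 117 lower), of which 36 and 6 were called the same way in KO mESC. An interaction of at least 1 left 467 (270 higher, 197 lower). With scaling to library size, 91 of the lower genes were lower in KO mESC. The X-linked minus autosomal median of 0.445 became 0.507 without a filter and 0.375 with the stricter one. Leaving out 1 library at a time gave 3965 to 5819 interaction calls, 4818 to 7401 EB calls, 4453 to 6879 calls before deletion, and 1188 to 1903 genes equal before deletion (635 to 978 higher, 539 to 925 lower). Those also called in KO mESC numbered 162 to 227 of the higher and 111 to 194 of the lower, and the X-linked minus autosomal median was 0.453 to 0.549. Of the 187 named genes, 158 kept their call when any 1 library was left out. At this depth 67.3% of simulated 2-fold interactions were called, with far fewer genes changed than were called in the data. The rate of missed calls in the data was thus not measured, and a missed call is no sign of equality. The cause of the changes was not tested.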
